A study of Mus musculus with 12 samples.

Results

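The 205 genes described here were far higher in CD8+ T_prog_ cells without the histone demethylase UTX than in cells with it. They were chosen by their measured RNA-seq values, out of 14459 tested genes whose normalized count averaged 10 or more over the 6 libraries, of 25860 genes in the table. A gene was taken when log2 of (mean UTX TCD count + 1)/(mean WT count + 1) was at least 2 and its lowest UTX TCD value lay above its highest WT value. Before any symbol was left out, 229 genes met these limits, or 1.58% of the genes tested. Symbols that start with Pcdh (8 genes), Oas (5), Ifit (3), Klr (8), Hox, Sox or Pax were then left out, 24 genes in all. Because these values selected the members, the genotype difference of a member is a description and was not tested. That its groups do not overlap follows from the rule and is no result.

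The cells were sorted from pancreatic lymph nodes of nonobese diabetic (NOD) mice with the NOD-TCR 8.3 transgene, a T cell receptor for a peptide of the β cell antigen IGRP on MHC class I. UTX TCD mice carried *UTX fl/fl* alleles, made on C57BL/6 and backcrossed to NOD, together with Lck-Cre, which is active from thymic T cell development on. WT mice were littermates without Cre. The labels give the gate as Ly108+ CXCR6-, the methods of the study as Ly108+ CD39-, and neither gives an age for these libraries. Each genotype had 3 RNA-seq libraries and 3 ATAC-seq libraries, named here by genotype and replicate number.

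UTX removes repressive methyl groups from histone tails and is also part of complexes that place activating marks at enhancers, so that its loss is best known for genes that are turned down. T_prog_ cells are the stem-like CD8+ T cells that renew themselves and give rise to cytolytic cells in chronic responses. Many genes of other lineages are kept silent in mature T cells by Polycomb complexes, whose mark UTX can erase.

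The target gene itself, *Kdm6a*, was counted at 28365, 28949 and 29172 in WT and 24158, 24792 and 24579 in UTX TCD libraries. Every UTX TCD value was under every WT value, with a log2 fold change of -0.23 and an adjusted p of 0.00114 from limma, which is under the fold limit of a call. A gene total includes exons outside the deleted part, so it does not check the labels. The markers of CD8 T cells were abundant in every library. *Cd8a* was counted at 272448, 270012 and 274004 in WT and 311527, 313000 and 270975 in UTX TCD libraries, and *Tcf7*, the transcription factor that marks progenitors, at 244276, 234809 and 227810 in WT and 229604, 220872 and 221558 in UTX TCD. Neither gene was called, and none of the 8 CD8 T cell markers or 6 progenitor markers was. The largest log2 fold changes among these markers were 0.38 for *Lef1* and -0.37 for *Cd8b1*. One WT library stood apart for a receptor gene. *Il7r* was counted at 38077, 79127 and 37105 in WT and 40509, 39892 and 38044 in UTX TCD libraries, so that WT 2 alone was high.

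As a group, the members summed to 37577, 42731 and 38438 normalized counts in the WT libraries and to 232747, 238350 and 226446 in the UTX TCD libraries. Their log2 ratios ran from 2.00 to 5.44 with a median of 2.58, beside 0.00 for all tested genes. A ratio of at least 3 was reached by 59 members and one of at least 4 by 18. By the mirrored rule, 174 genes were lower in UTX TCD cells. Most members were close to silent in WT. Their median WT mean was 13.4 normalized counts, against 2498 for all tested genes, and their median UTX TCD mean was 89.3. A WT mean under 10 was found for 84 members (41.0%, against 2.13% of tested genes), one of 10 to 100 for 86 (42.0%, against 17.6%), one of 100 to 1000 for 27 (13.2%, against 18.2%) and one over 1000 for 8 (3.90%, against 62.1%). The 84 members with a WT mean under 10 passed the filter on low values only through the UTX TCD libraries, so they had to differ, whereas 121 passed it in WT alone. Even in UTX TCD cells few members reached the level of an ordinary gene of these cells. Per kilobase of exon, the median member stood at 3.44 normalized counts in WT and 26.3 in UTX TCD cells, where the median tested gene stood at 847 and 852. Of 202 members with an exon length, 3 lay above the median tested gene in WT and 15 in UTX TCD cells. In sorted bulk cells, more cells that express a gene and more RNA per cell cannot be told apart.

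**Figure D1:**
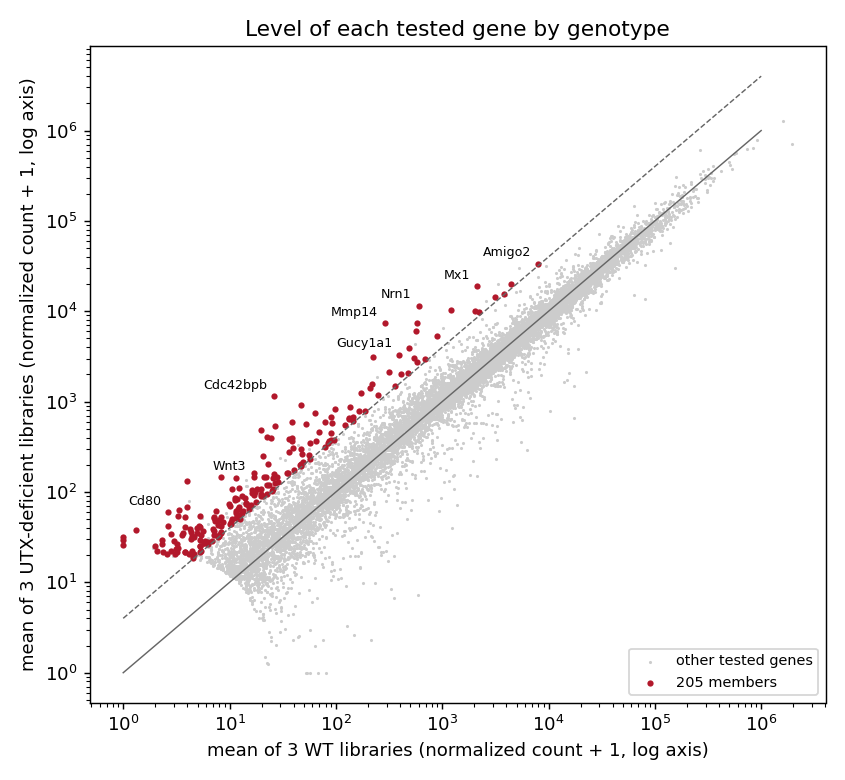
Mean normalized count + 1 of each tested gene in the 3 WT libraries (x axis, log scale) and the 3 UTX TCD libraries (y axis, log scale). Red points are the 205 members, which lie on or above the dashed line of a log2 ratio of 2, most of them at WT means under 100. The solid line marks equal means.

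The members did not vary alike among the libraries of a genotype. WT 2 held the highest WT value for 102 members, WT 1 for 50 and WT 3 for 53. In 10 members WT 2 was at least at 10 counts and over 2 times each other WT library. UTX 3 held the highest UTX TCD value for 106 members and was over 2 times each other UTX TCD library in 14. The gap between genotypes was wide for most: in 187 members the lowest UTX TCD value was over 2 times the highest WT value, and in 8 it was under 1.5 times. UTX 1 was the shallowest library, with 61512402 counted reads against 144503203 to 193568919 in the others, and 1 read in it was worth 2.25 normalized counts. At the limit of the ratio stood *Gm3696*, *Zfp976* and *Syt6*, each at 2.00, and *Mx2* at 2.01. Just outside it were *Shank3* at 2.00 (1.996 before rounding), *Tro* at 1.99, *Trim30b* at 1.99 and *Sdk1* at 1.98.

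The largest ratio by the rule, which adds 1 to each mean, belonged to *Cdc42bpb*, which encodes a kinase that acts on actin and myosin downstream of CDC42. It was counted at 12.9, 37.5 and 25.9 in WT and 1032, 1163 and 1257 in UTX TCD libraries, or 25.4 ± 12.3 and 1151 ± 113 (mean ± SD, n = 3 libraries each), a 45.2-fold higher mean. The lowest UTX TCD value was far above the highest WT value, and WT 1 was the lowest library of all. *Nrep*, a small protein of regenerating neurons and of wound fibroblasts, was counted at 2.97, 2.96 and 3.05 in WT and 103, 112 and 181 in UTX TCD, 44.1-fold higher. Its WT libraries held almost the same few counts, and UTX 3 was the highest. No read of *Igsf9b* or *Dcaf8l* was counted in any WT library. *Igsf9b*, an adhesion protein of inhibitory synapses, stood at 31.5, 37.6 and 24.3 in UTX TCD libraries, at least 11.4-fold higher against a floor of 3 reads per WT library, and *Dcaf8l* at 35.99, 13.6 and 25.8, at least 9.17-fold higher. Both were thus present in each UTX TCD library at a low level. *Ecel1*, a membrane metalloprotease of developing neurons, had 1 read in WT (in WT 2) and 116 in UTX TCD libraries, a ratio of 127 (95% counting interval 22.3 to 5051). Without the 1 added by the rule, its means were 113-fold apart, more than those of *Cdc42bpb*. *Ckmt1*, a mitochondrial creatine kinase, had 3 reads in WT, all in WT 1, and 76 in UTX TCD libraries, a ratio of 27.7 (9.12 to 137). Such floors and intervals cover counting error only. In 13 members no WT library held more than 3 reads.

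At the other end stood members with many counts. *Amigo2*, a leucine-rich repeat adhesion protein, had the highest UTX TCD level both in counts and per kilobase of exon (2491 in WT and 10465 in UTX TCD cells). It was counted at 8386, 6988 and 8648 in WT and 36033, 36748 and 28125 in UTX TCD libraries, a 4.201-fold difference. UTX 3 was the lowest of the UTX TCD libraries, still over 3 times the highest WT library. Per kilobase of exon in UTX TCD cells it was followed by *Mx1* (7061), *Nrn1* (6546), *Mx2* (6345), *Coro2a* (4756), *Dennd5a* (2864), *Cmpk2* (2820), *Rsad2* (2748) and *Mmp14* (1964). *Coro2a*, an actin-binding coronin, was counted at 2804, 7410.4 and 2968 in WT and 19270.5, 20073 and 21409 in UTX TCD. WT 2 was high here, at over 2 times the other WT libraries, and still well below the UTX TCD libraries, which lay close together. *Dennd5a*, an activator of the RAB39 GTPases, was counted at 3007, 3366 and 3028 in WT and 14425, 14563 and 14002 in UTX TCD, and *Rab39* itself, also a member, at 85.2, 94.8 and 68.6 in WT and 376, 336 and 327 in UTX TCD. Both had narrow groups and 4.57-fold and 4.18-fold differences. *Dst*, a plakin that links actin, microtubules and intermediate filaments, was counted at 1984, 2029.8 and 2066 in WT and 9488, 9703 and 10922 in UTX TCD. The ratio was 2.31, with every UTX TCD library over 4 times any WT library. *Map2*, a microtubule protein of dendrites, stood at 2.97, 7.898 and 1.53 in WT and 42.7, 42.4 and 39.1 in UTX TCD, with WT 2 the highest WT library.

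**Figure D2:**
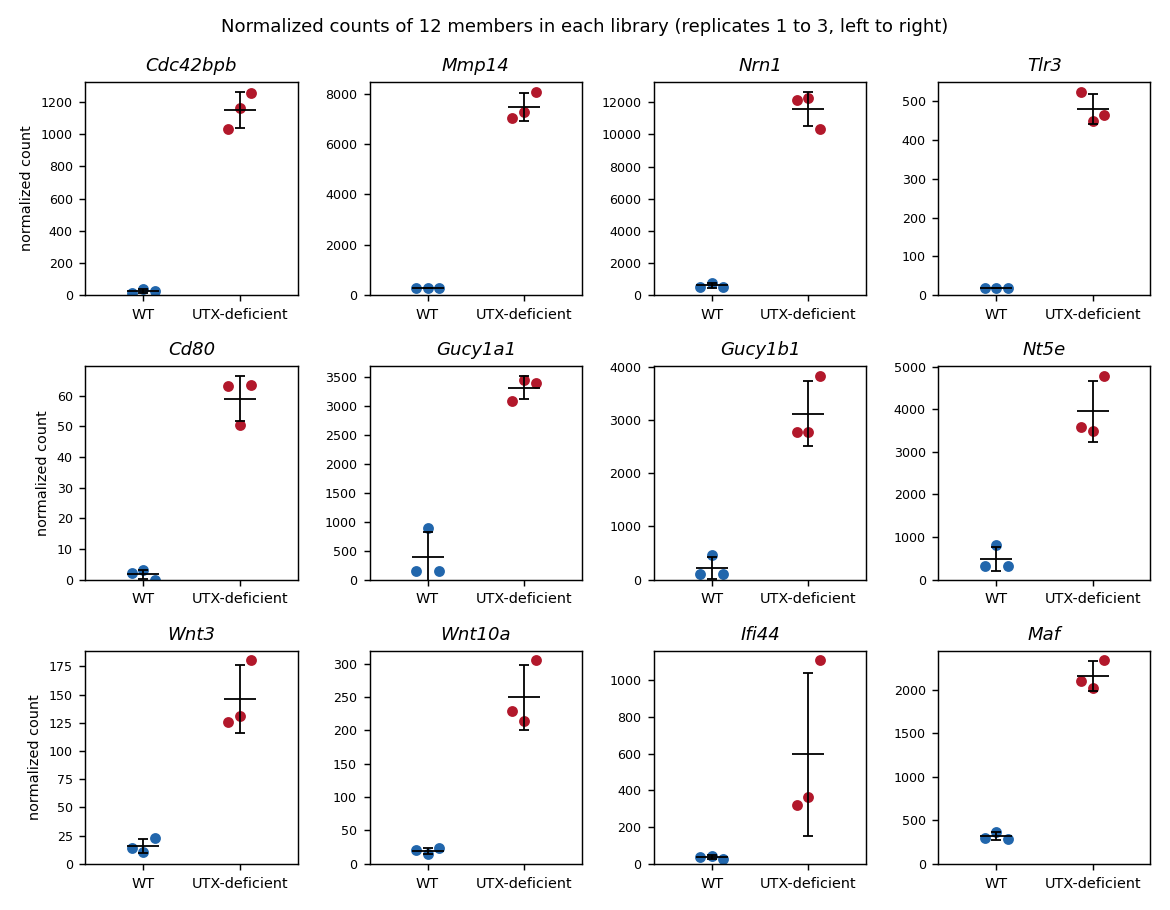
Normalized counts of 12 members in each library, with the mean and SD of 3 libraries per genotype (y axis from 0, own scale in each panel). The 12 genes were chosen after their values were seen. In each panel the UTX TCD libraries lie above the WT libraries, as the rule requires. WT 2 is apart from the other WT libraries for *Gucy1a1*, *Gucy1b1* and *Nt5e*, and UTX 3 is apart from the other UTX TCD libraries for *Ifi44*.

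Adhesion, synapse and axon guidance proteins together made up the largest group with an assigned role, 21 members. Roles were assigned after the values were seen and were counted among members only. No share of tested genes thus stands beside this or the later role counts, which are descriptions. Each list of related genes is counted here and below without its members, which the rule fixed as higher. Across all genes tested, members included, limma called 1518 (10.5%) higher and 1020 (7.05%) lower. Of 9 neuronal adhesion and synapse organizers tested outside the set, 5 were called higher and 1 lower, with a median log2 fold change of 0.52, beside -0.00 for all tested genes, while 11 genes of the list are members. *Nrn1*, neuritin, a lipid-anchored protein that promotes neurite growth, was counted at 527, 751 and 532 in WT and 12126, 12271 and 10341 in UTX TCD, 19.2-fold higher, with UTX 3 the lowest UTX TCD library. *Nlgn2*, the neuroligin of inhibitory synapses, was counted at 661, 700.0 and 701 in WT and 2782, 2993 and 3028 in UTX TCD. In both genotypes the libraries lay within a narrow range, and the groups were far apart. *Kirrel1*, a nephrin-like adhesion protein, stood at 1.98, 1.97 and 3.05 in WT and 44.99, 48.8 and 95.1 in UTX TCD. *Lingo4*, a leucine-rich repeat protein, stood at 8.92, 8.89 and 10.7 in WT and 83.2, 48.05 and 192 in UTX TCD. For both genes UTX 3 was about the sum of the other UTX TCD libraries or more, and WT was at or under 10.7 counts. *Lrrtm2* (51.5, 40.5 and 43.5 in WT and 178, 147 and 265 in UTX TCD) and *C1ql3* (22.8, 26.7 and 10.7 in WT and 137, 123 and 176 in UTX TCD), both organizers of excitatory synapses, were also highest in UTX 3. *Ncam1*, the neural cell adhesion molecule, stood at 3.96, 4.94 and 3.05 in WT and 35.99, 45.6 and 21.4 in UTX TCD, with UTX 3 the lowest. *Lrig3*, a leucine-rich repeat regulator of growth factor receptors, was counted at 87.2, 84.9 and 85.4 in WT and 371, 360.3 and 358 in UTX TCD, and *Shank1*, a scaffold of the postsynaptic density, at 22.8, 31.6 and 18.3 in WT and 83.2, 115 and 104 in UTX TCD. The groups of *Shank1* were more spread than those of *Lrig3*. Outside the list, *Dlg5*, a scaffold of cell junctions, was counted at 40.6, 37.5 and 60.2 in WT and 857, 902 and 963 in UTX TCD, 19.7-fold higher. *Tjp1*, the tight junction protein ZO-1, stood at 3.96, 9.87 and 5.34 in WT and 69.7, 60.9 and 51.6 in UTX TCD. By the rule, neither gene had overlapping groups. The list genes that were called without being members were led by *Shank3*, just outside the limit (33.7, 36.5 and 10.7 in WT and 135, 118 and 78.9 in UTX TCD, log2 fold change 2.14, adjusted p = 0.00492), *Igsf9* (1.15, adjusted p = 0.00758) and *Nlgn3* (0.95, adjusted p = 0.000469). Each of these genes was higher in 3 of 3 UTX TCD libraries than in any WT library.

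Of 16 axon guidance ligands and receptors tested outside the set, 3 were called higher and 2 lower, with a median log2 fold change of -0.00, and 4 more are members. *Slit3*, a secreted ligand of ROBO receptors, stood at 3.96, 1.97 and 3.81 in WT and 31.5, 34.4 and 47.9 in UTX TCD, 11.7-fold higher. It was barely counted in WT and low in UTX TCD libraries. *Efna4*, an ephrin, stood at 10.9, 9.87 and 9.91 in WT and 56.2, 76.1 and 109.8 in UTX TCD, *Neo1*, a receptor of netrins and repulsive guidance molecules, at 47.5, 60.2 and 35.1 in WT and 229, 239 and 177 in UTX TCD, and *Plxnb2*, a semaphorin receptor, at 47.5, 46.4 and 70.2 in WT and 198, 195 and 383 in UTX TCD. UTX 3 was the highest UTX TCD library for *Efna4* and *Plxnb2* and the lowest for *Neo1*. The semaphorin coreceptors moved the other way. *Nrp2* fell from 4781, 4595 and 4733 in WT to 891, 910.5 and 970.1 in UTX TCD (log2 fold change -2.35, adjusted p = 3.98e-08), and *Nrp1* from 234, 366 and 259 to 146, 167 and 148 (-0.87, adjusted p = 0.00575), lower in 3 of 3 UTX TCD libraries for both. The ephrin *Efna2* rose by 0.90 (adjusted p = 0.00623).

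Matrix proteins and proteases formed a group of 13 members. Of 27 list genes tested outside the set, 5 were called higher and 0 lower, with a median of 0.29. *Mmp14*, a membrane-bound protease that cleaves collagen and activates other matrix proteases, was counted at 281, 299 and 293 in WT and 7034, 7279 and 8083 in UTX TCD. The means were 291 ± 9.03 and 7465 ± 549 (SD, n = 3), 25.6-fold apart, and the WT libraries differed by less than 20 counts. *Mmp14* was the only member among both the 12 largest ratios and the 12 highest UTX TCD means. *Sdc3*, a heparan sulfate proteoglycan of the cell surface, was counted at 543, 544 and 625 in WT and 5977, 6187 and 5908 in UTX TCD, 10.6-fold higher. *Spock2*, a matrix proteoglycan, was counted at 513, 603 and 611 in WT and 2825, 2737 and 2738 in UTX TCD. Both were expressed in WT and narrow in each genotype. *Adam12*, a membrane protease and disintegrin, was counted at 105, 102 and 83.9 in WT and 835, 791 and 875 in UTX TCD, and *Col5a1*, a chain of type V collagen, at 88.2, 88.9 and 96.1 in WT and 601, 651 and 492 in UTX TCD. Their WT levels were near 100 counts in each library. *Serpine2*, an inhibitor of serine proteases, stood at 48.5, 69.1 and 49.6 in WT and 331, 322 and 394 in UTX TCD, and *Fap*, a serine protease best known from activated fibroblasts, at 51.5, 51.3 and 34.3 in WT and 200.2, 209 and 201 in UTX TCD. For *Fap* the UTX TCD libraries were almost equal. *Hmcn2*, a hemicentin (40.6, 46.4 and 17.5 in WT and 249.7, 233 and 346 in UTX TCD), *Fstl1*, a follistatin-like secreted protein (23.8, 24.7 and 14.5 in WT and 110.2, 104 and 226 in UTX TCD), and *Nid1*, a basement membrane protein (6.93, 1.97 and 1.53 in WT and 22.5, 14.4 and 27.3 in UTX TCD), were highest in UTX 3. *Ltbp4*, which binds latent TGF-β, was lowest there (15.8, 6.91 and 9.91 in WT and 76.5, 88.1 and 28.7 in UTX TCD). *Adam15* also rose, by 1.02 (adjusted p = 0.000281), in 3 of 3 libraries. The calls of *Sdc1*, also a plasma cell marker (1.26, adjusted p = 0.023), and *Col1a2*, also a fibroblast marker (0.81, adjusted p = 0.0222), did not hold throughout. *Col1a2* was not called without UTX 2 (adjusted p = 0.081). *Sdc1* was not called by DESeq2 (adjusted p = 0.0866) or without WT 1, WT 3, UTX 1 or UTX 2 (adjusted p from 0.0601 to 0.0796).

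Of the WNT pathway, 6 genes were members, from ligands to inhibitors. *Wnt3* was counted at 13.9, 10.9 and 22.9 in WT and 126, 131 and 181 in UTX TCD, 9.198-fold higher, and *Wnt10a* at 20.8, 14.8 and 23.6 in WT and 229, 215 and 305 in UTX TCD, 12.6-fold higher. For both ligands UTX 3 was the highest library and WT stayed under 24 counts. Of 5 other ligands tested, 0 were called higher and 2 lower, with a median of 0.11. *Wnt10b* had 114, 137 and 129 in WT and 47.2, 68.9 and 89.9 in UTX TCD and a log2 fold change of -0.92 (adjusted p = 0.0182). *Wnt5b* had 3460.1, 3994 and 3829 in WT and 2409, 2743 and 2786 in UTX TCD and -0.51 (adjusted p = 0.000896). Both were lower in 3 of 3 UTX TCD libraries. Without WT 2 or WT 3 neither was called: *Wnt10b* had adjusted p of 0.0546 and 0.052, and *Wnt5b* had log2 fold changes of -0.46 and -0.49, short of the limit, as without UTX 1 (-0.44). Of 7 receptors and coreceptors outside the set, 4 were called higher and 0 lower (median 0.72). *Ryk*, a receptor tyrosine kinase-like WNT receptor, was counted at 145, 94.8 and 158 in WT and 619, 699 and 643 in UTX TCD, and *Fzd10* at 2.97, 4.94 and 1.53 in WT and 8.998, 18.4 and 31.7 in UTX TCD. *Ryk* was well expressed in each UTX TCD library, whereas *Fzd10* stayed under 32 counts and its groups came close. Among receptors outside the set, *Ptk7* (1.70, adjusted p = 0.034), *Fzd6* (1.19, adjusted p = 0.0241) and *Fzd3* (1.13, adjusted p = 0.0194) were called, higher in 3 of 3 libraries. These calls depended on single libraries: *Fzd3* was not called without WT 1 (adjusted p = 0.0638), *Fzd6* without WT 1, WT 2, UTX 2 or UTX 3 (0.0615 to 0.074), and *Ptk7* without WT 1, WT 3, UTX 2 or UTX 3 (0.0827 to 0.095) or by DESeq2 (0.0587). Of 12 inhibitors and feedback genes outside the set, 2 were called higher and 1 lower (median 0.04). *Rnf43*, a ubiquitin ligase that removes Frizzled receptors from the surface, was counted at 677, 531 and 545 in WT and 7083, 7266 and 8139 in UTX TCD, 12.8-fold higher. *Sfrp2*, a secreted WNT antagonist, was counted at 67.4, 146 and 51.1 in WT and 394, 311 and 426 in UTX TCD, with WT 2 the highest WT library. The *Rnf43* total is uncertain because it overlaps the member *1110028F11Rik* (14.9, 26.7 and 22.9 in WT and 436, 352 and 411 in UTX TCD) and the strand setting of the counts is not stated. The feedback gene *Axin2*, a direct target of β-catenin, fell from 9320.5, 8450.0 and 9598 to 5426, 5510.0 and 5179 (-0.76, adjusted p = 1.66e-05), in 3 of 3 libraries. *Nkd1* (1.74, adjusted p = 0.00955) and *Lgr4* (1.02, adjusted p = 0.00465) rose, also in 3 of 3.

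Both subunits of soluble guanylate cyclase, the nitric oxide receptor that makes cGMP, were members. *Gucy1a1* was counted at 139, 888 and 153 in WT and 3079, 3439 and 3397 in UTX TCD and *Gucy1b1* at 104, 462 and 96.1 in WT and 2776, 2763 and 3818 in UTX TCD. WT 2 was high for each subunit, over 4 times the other WT libraries, yet far under every UTX TCD library. The means were 8.41-fold and 14.1-fold apart, and 22.7-fold and 31.2-fold without WT 2. *Npr2*, the cyclase receptor for C-type natriuretic peptide, stood at 9.91, 7.898 and 9.91 in WT and 49.5, 34.4 and 53.8 in UTX TCD, low in both genotypes. The enzyme that degrades cGMP with high affinity moved down: *Pde9a* fell from 1429, 1327 and 1406 to 74.2, 60.9 and 76.7 (log2 fold change -4.28, adjusted p = 7.83e-08), lower in 3 of 3 libraries. Of 6 genes of cGMP signalling tested outside the set, 1 was called higher and 1 lower, with a median of -0.03. The higher one was *Gucy2e*, a membrane guanylate cyclase (1.70, adjusted p = 0.00785, higher in 3 of 3). Other members with a role in cyclic nucleotide or G protein signalling were lower in level. *Ptgir*, the prostacyclin receptor, stood at 5.94, 14.8 and 6.101 in WT and 71.98, 48.05 and 98.04 in UTX TCD, *Adra2a*, an adrenergic receptor, at 0.991, 3.95 and 6.101 in WT and 17.995, 19.2 and 22.1 in UTX TCD, and *Rgs4*, which shortens G protein signals, at 11.9, 15.8 and 5.34 in WT and 44.99, 46.4 and 59.7 in UTX TCD. Their WT libraries held at most 15.8 counts.

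Genes stimulated by interferon were among the members with the highest levels. Of 34 list genes tested outside the set, 28 were called higher and 0 lower, with a median of 0.78. Symbols starting with Oas and Ifit are outside the set by the rule. *Mx1*, an antiviral GTPase, was counted at 2231, 1886 and 2316 in WT and 20089, 21094 and 15949 in UTX TCD, 8.88-fold higher, and its neighbour *Mx2* at 4034, 3236 and 4194 in WT and 16945, 17509 and 11648 in UTX TCD, 4.02-fold. As paralogs with similar sequence, they may share reads, and RefSeq lists both as transcribed pseudogenes of the reference strain. *Rsad2*, viperin, which makes a chain-terminating nucleotide, was counted at 1204, 1185 and 1237 in WT and 11386, 11769 and 8048 in UTX TCD, and *Cmpk2*, a nucleotide kinase encoded next to it, at 2302, 1913 and 2457 in WT and 10259.5, 10862 and 8014 in UTX TCD. For these 4 genes UTX 3 was the lowest UTX TCD library. *Ifi44* behaved differently. It was counted at 38.6, 45.4 and 28.2 in WT and 319, 362 and 1106 in UTX TCD, so that UTX 3 was about 3 times the other UTX TCD libraries. *Tlr3*, the endosomal sensor of double-stranded RNA, was counted at 18.8, 19.7 and 18.3 in WT and 524, 449 and 464 in UTX TCD, 25.3-fold higher, with nearly equal WT libraries. *Phf11a* was counted at 176, 126 and 192 in WT and 760.3, 771 and 836 in UTX TCD, and *Naip5*, a sensor of bacterial flagellin outside the list, at 17.8, 14.8 and 25.9 in WT and 80.98, 107 and 80.3 in UTX TCD. As members, none of these genes could have overlapping groups. The list genes called without being members were led by *Usp18* (1.89, adjusted p = 1.51e-05), *Isg15* (1.81, adjusted p = 6.11e-06) and *Eif2ak2* (1.72, adjusted p = 2.53e-06), each higher in 3 of 3 libraries. The protein products of *Usp18* and *Isg15* restrain interferon signalling and tag proteins, and that of *Eif2ak2* halts translation.

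Lymphocyte genes included several of type 17 cells. Of 7 tested outside the set, 2 were called higher and 1 lower (median 0.55). *Maf*, a transcription factor shared by type 17 and regulatory T cells, was counted at 297, 369 and 288 in WT and 2094, 2019 and 2346 in UTX TCD, with UTX 3 the highest library. *Il23r*, the receptor chain for interleukin-23, stood at 1.98, 8.89 and 4.58 in WT and 15.7, 9.61 and 53.1 in UTX TCD. UTX 2 lay just above WT 2, the narrowest gap among the genes of the list. The scavenger receptors *Scart1* (388, 372 and 467 in WT and 2024, 2128 and 1957 in UTX TCD) and *Scart2* (886, 868 and 908 in WT and 4292, 4756 and 6947 in UTX TCD), best known from γδ T cells, lie next to each other and are related in sequence, so their split is uncertain. Both were expressed in WT. *Il17re* (1.504, adjusted p = 0.00345) and *Rora* (0.60, adjusted p = 0.00389) rose without being members, and *Ahr* fell by 0.79 on the log2 scale (adjusted p = 0.00531), each in 3 of 3 libraries. Of 6 γδ T cell markers, 3 are in the table, and their sums were 66798, 59404 and 61886 in WT and 63089, 58441 and 57240.5 in UTX TCD. *Trdc* made up most of them, at 64851, 57643 and 59996 in WT and 57467, 52986 and 51938 in UTX TCD. It was lower in each UTX TCD library, though UTX 1 lay only just under WT 2. *Sox13*, at 1860.3, 1672 and 1788 in WT and 5266, 5192 and 5127 in UTX TCD, and *Trdv4*, at 87.2, 88.9 and 101 in WT and 355, 263 and 176 in UTX TCD, were higher in each UTX TCD library. Their part in the result for the type 17 genes was not tested.

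*Cd80*, a ligand of CD28 and CTLA-4 that is typical of antigen-presenting cells, stood at 1.98, 2.96 and 0 in WT and 62.98, 50.4 and 63.4 in UTX TCD. No WT library held more than 3 reads of it. *Tnfsf4*, OX40 ligand, was counted at 79.2, 112 and 77.03 in WT and 598, 595 and 823 in UTX TCD. Both were clear of WT in each library, as the rule requires. Of 8 costimulatory ligands tested outside the set, 2 were called higher and 2 lower (median 0.04). *Cd86*, the relative of *Cd80* with the same receptors, fell from 1377, 1383 and 1405 to 274, 282 and 464 (log2 fold change -2.07, adjusted p = 4.11e-05), and *Icosl* from 431, 372 and 391 to 146, 163 and 194 (-1.25, adjusted p = 0.000218), each in 3 of 3 libraries. *Tnfsf9* was called higher (0.65, adjusted p = 0.0165), but not without UTX 1 (adjusted p = 0.0513) or UTX 2 (0.0725). Enzymes that act on extracellular nucleotides went both ways. *Nt5e*, CD73, which makes adenosine from AMP, was counted at 326, 811 and 315 in WT and 3579, 3496 and 4788 in UTX TCD, 8.17-fold higher, with WT 2 over 2 times the other WT libraries. Without WT 2 the means were 12.3-fold apart. *Art2a*, an ADP-ribosyltransferase of the T cell surface, was counted at 118, 209 and 70.2 in WT and 675, 539 and 699 in UTX TCD, and *Art3* at 44.6, 50.4 and 23.6 in WT and 164, 211 and 148 in UTX TCD. RefSeq lists *Art2a* as a transcribed pseudogene of the reference strain, and the span of *Art3* overlaps that of another tested gene. Of 12 such genes tested outside the set, 3 were called higher and 5 lower (median -0.66). *Art4* fell by 2.89 on the log2 scale (adjusted p = 9.85e-07), *Enpp1*, which cleaves ATP to AMP, by 1.86 (adjusted p = 1.38e-05), and *Ada*, which turns adenosine into inosine, by 1.70 (adjusted p = 1.63e-05). All were lower in 3 of 3 libraries. *Ccl3*, a chemokine of activated T cells, stood at 4.95, 0.987 and 4.58 in WT and 20.2, 19.2 and 16.2 in UTX TCD, near the lowest level of the set.

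Among secreted and membrane ligands, *Dll1*, a ligand of NOTCH receptors, was counted at 13.9, 11.8 and 6.101 in WT and 157, 151 and 122 in UTX TCD, 13.5-fold higher. Of 7 other NOTCH ligands and receptors tested, 0 were called higher and 0 lower (median -0.03). Of 14 growth factors outside the set, 4 were called higher and 2 lower (median 0.36). *Lif* stood at 17.8, 26.7 and 12.2 in WT and 96.7, 63.3 and 157 in UTX TCD, *Igf2* at 21.8, 17.8 and 16.8 in WT and 110.2, 92.1 and 68.6 in UTX TCD, *Bmp8a* at 5.94, 9.87 and 6.101 in WT and 35.99, 42.4 and 25.8 in UTX TCD and *Pdgfa* at 2.97, 4.94 and 2.29 in WT and 49.5, 36.03 and 9.58 in UTX TCD. UTX 3 was the highest UTX TCD library for *Lif* and the lowest for *Igf2*, *Bmp8a* and *Pdgfa*. *Igf2* overlaps *Igf2os* (13.9, 16.8 and 19.8 in WT and 89.98, 92.9 and 46.4 in UTX TCD), so which of the pair gave the reads is uncertain. *Pdgfb* rose by 1.76 (adjusted p = 2.88e-05) and *Csf1* by 1.36 (adjusted p = 0.000726), while *Tgfb3* fell from 225, 168 and 256 to 31.5, 32.8 and 28.01 (-2.75, adjusted p = 2.35e-05), each in 3 of 3 libraries. Growth arrest genes were also present. *Cdkn1a*, an inhibitor of cyclin-dependent kinases, was counted at 29.7, 45.4 and 29.7 in WT and 403, 305 and 435 in UTX TCD, 10.9-fold higher, *Phlda3*, a p53 target that restrains AKT, at 99.1, 148 and 112 in WT and 531, 508 and 601 in UTX TCD, and *Plagl1*, an imprinted zinc finger gene, at 142, 256 and 111 in WT and 1048, 1009 and 1709 in UTX TCD. WT 2 was the highest WT library for all 3 genes. Of 17 p53 target and growth arrest genes tested outside the set, 4 were called higher and 1 lower (median 0.26). *Plk2* (1.96, adjusted p = 0.000156), *Bbc3* (1.41, adjusted p = 0.000294) and *Zmat3* (1.10, adjusted p = 7.47e-07) rose in 3 of 3 libraries.

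Transcription and chromatin genes made up 15 members. *Dmrta1*, a DM domain factor, stood at 2.97, 15.8 and 3.05 in WT and 137, 131 and 170.3 in UTX TCD, 20.1-fold higher (48.6-fold without WT 2), and *Zfp608* at 56.5, 83.9 and 49.6 in WT and 724, 836 and 668 in UTX TCD. *Prox1*, the homeobox factor of lymphatic endothelium, stood at 4.95, 0.987 and 0.763 in WT and 20.2, 16.02 and 41.3 in UTX TCD, and *Nr3c2*, the mineralocorticoid receptor, at 11.9, 11.8 and 6.86 in WT and 92.2, 65.7 and 98.04 in UTX TCD. All 4 genes were clear of WT, as the rule requires. *Hr*, a histone demethylase of skin and brain, was counted at 72.3, 85.9 and 77.8 in WT and 601, 722 and 445 in UTX TCD, and *Yap1*, the coactivator of the Hippo pathway, at 31.7, 20.7 and 24.4 in WT and 148, 139 and 83.3 in UTX TCD, with UTX 3 the lowest of its genotype for both. *Rbm24*, an RNA-binding protein of muscle, was counted at 22.8, 33.6 and 21.4 in WT and 576, 549 and 474 in UTX TCD, 20.6-fold higher. Metabolic enzymes and proteases gave 17 members with a median ratio of 2.40. *Eno2*, the enolase of neurons, was counted at 248, 223 and 278 in WT and 1203, 1219 and 1162 in UTX TCD, *Asns*, asparagine synthetase, at 79.2, 114 and 73.98 in WT and 468, 428 and 444 in UTX TCD, and *Cygb*, cytoglobin, at 18.8, 33.6 and 12.96 in WT and 205, 192 and 213 in UTX TCD. Their UTX TCD libraries lay close together. Among ion channels and transporters, *Slc7a7*, an amino acid transporter, was counted at 45.6, 69.1 and 39.7 in WT and 580.3, 484 and 621 in UTX TCD, and *Kcnc2*, a potassium channel subunit, at 0.991, 5.92 and 0 in WT and 42.7, 72.1 and 43.5 in UTX TCD. WT 1 and WT 3 held almost no *Kcnc2*. No role was assigned to 55 members, whose ratios ran from 2.00 to 5.06. Of all members, 203 matched a RefSeq gene, of which 185 are protein coding and 10 are long noncoding RNAs.

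Some members are neighbours on the chromosome. Of 203 with a position, 26 lay within 100 kb of another member, in 13 pairs. Pairs that overlap include *Rnf43* and *1110028F11Rik*, and *Igf2* and *Igf2os*. Related genes side by side were *Gucy1b1* and *Gucy1a1* (17.7 kb apart), *Mx1* and *Mx2* (73.2 kb), *Scart1* and *Scart2* (16.1 kb) and the lipoxygenases *Aloxe3* and *Alox8* (34.8 kb). *Rsad2* and *Cmpk2* (12.7 kb) are both interferon-stimulated. Unrelated pairs include *Slc7a7* and *Mmp14* (11.5 kb), *Nrbp2* and *Eppk1* (9.8 kb), *Spem1* and *Nlgn2* (1.0 kb), and *Ago4* and *5730409E04Rik* (76.3 kb). *Eppk1*, a plakin of epithelia, was counted at 29.7, 17.8 and 22.9 in WT and 427, 410.0 and 359 in UTX TCD, and *Nrbp2* at 149.6, 139 and 147 in WT and 646, 655 and 705 in UTX TCD, so the neighbours differed in ratio (4.03 and 2.19). *Slc7a7* and *Mmp14* had ratios of 3.42 and 4.68. Of the 203 members, 23 overlap another tested gene, and their counts are uncertain for the same reason as that of *Rnf43*. They include *Amigo2*, *C1ql3*, *Slc7a7* and *Npr2*. Members were found on every autosome and on chromosome X, by number most on chromosome 7 (22 of 1093 tested genes) and 11 (20 of 1179), and 6 of 473 on X. As a share of tested genes, chromosome 3 was highest (13 of 638, 2.04%), then chromosome 7 (2.01%), and chromosome 11 was lower (1.70%).

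ATAC-seq, which the rule did not use, was then read for these genes. The authors' table lists 23932 peaks of open chromatin that differ between genotypes, 23903 of them with the Gene Name of the nearest start, and each with a mean log2 concentration of reads per genotype. It holds no values per library, so these differences carry no replicate spread and were not tested. Of the members, 156 (76.1%) had at least 1 listed peak under their name, against 47.6% of tested genes. At least 1 more accessible peak was found for 153 members (74.6%, against 38.4%), and a more accessible peak annotated as promoter for 85 (41.5%, against 9.28%). Of members with a peak, 140 (89.7%) had only more accessible peaks, against 62.9% of tested genes with a peak, 13 had peaks in both directions and 3 had only less accessible peaks. In all 396 peaks carried a member's name and 361 of them (91.2%, against 65.7%) were more accessible. The mean difference of a member's peaks had a median of 0.98 (log2, UTX TCD minus WT), against 0.47 for tested genes with a peak. An increase over 1 was seen in 44.7% of member peaks, against 14.4%, and one over 2 in 12.4%, against 2.06%. By WT level, a more accessible peak was listed for 64.3% of members with a WT mean under 10 (56.2% of tested genes at that level), 81.4% of those at 10 to 100 (42.7%), 77.8% of those at 100 to 1000 (37.7%) and all 8 over 1000 (36.8%). These 8 are *Amigo2*, *Mx1*, *Mx2*, *Rsad2*, *Cmpk2*, *Coro2a*, *Dennd5a* and *Dst*. Tested genes with a WT mean under 10 pass the filter only with a higher UTX TCD mean, and they include the members at that level. Their 56.2% is therefore not a neutral background, unlike the shares at higher WT levels. Of the 361 more accessible member peaks, 23.8% were annotated as promoter (12.7% for tested genes) and 34.3% lay within 1 kb of a start (17%). Introns held 36.8% (48.9%), and 21.9% were over 50 kb away (20.03%).

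**Figure D3:**
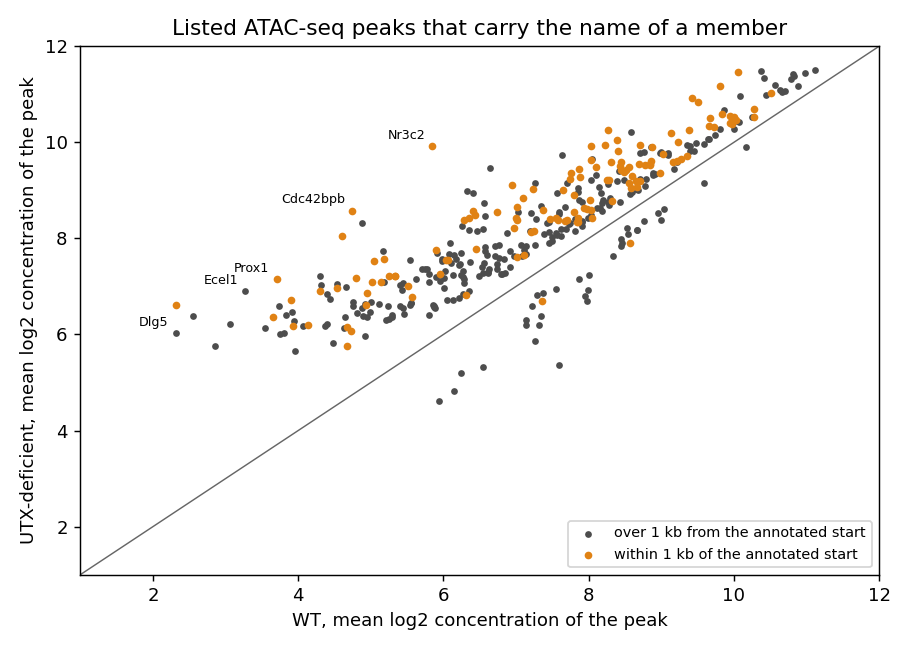
Mean log2 concentration of each of the 396 listed peaks with a member's name, in WT (x axis) and UTX TCD cells (y axis), as group means of the authors. Points above the line are more accessible without UTX, 361 in all. Orange points lie within 1 kb of the annotated start, and named points are among the 8 largest increases.

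Among the largest increases, the promoter peak of *Nr3c2* (chr8:76901951-76902351, mm10) differed by 4.07, and another peak in its intron by 2.92. *Cdc42bpb*, the member with the largest RNA ratio by the rule, had a peak in its first exon (chr12:111377298-111377698) at 4.74 in WT and 8.58 in UTX TCD cells, a difference of 3.84, and one in an intron that differed by 1.89. *Slit3* gained most in intron 4, 175 kb from the start, by 3.82, and all 4 of its peaks were more accessible. At *Dlg5* all 3 peaks gained over 3, the most by 3.72. *Ecel1* gained 3.63 at its peak in exon 2, *Prox1* 3.44 in its first exon, and *Ryk* 2.91 in intron 1. In WT the peaks with the largest increase at each of these genes stood at concentrations of 2.31 to 5.85, under the median of 7.37 for member peaks. Some members carried many peaks, some of them far from the start that gave the name. A peak of *Maf* lay 596232 bases away, and the largest increases of *Zfp608* and *Nrn1* lay 491 kb and 156 kb away. *Maf* had 21, of which 19 were more accessible, *Zfp608* had 19 and *Nrn1* 13, all more accessible, and *Sfrp2* and *Dst* had 8 each, all more accessible. *Ier5l* had 7, likewise. Others were mixed: *4921525O09Rik* had 11 of 16 and *Amigo2* 7 of 11 more accessible. At *Amigo2* the peak with the largest change (chr15:97329210-97329610) was less accessible (-1.39), and the next (chr15:97380545-97380945) more accessible by 1.33. Both lie over 80 kb from its start.

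By role, all 6 WNT members had a more accessible peak, and 5 of them a more accessible promoter peak. At *Wnt3* all 5 peaks were more accessible, the most at chr11:103771470-103771870, by 2.66. At the promoter of *Rnf43* (chr11:87662365-87662765) the difference was 0.68, and at that of *Sfrp2* 1.37. Both cyclase subunits had open promoters. *Gucy1b1* gained 1.59 (chr3:82074539-82074939) and *Gucy1a1* 0.94 there, and *Gucy1a1* had 5 peaks in all. Among interferon-stimulated genes, the promoter peak of *Rsad2* (chr12:26456307-26456707) stood at 10.51 in WT and 11.02 in UTX TCD cells, that of *Cmpk2* gained 0.54, and that of *Mx1* went from 9.13 to 10.19. In WT these promoters stood above the median of member peaks. Away from the promoters, intron peaks of *Mx2* gained 2.34 and 1.69, and one of *Mx1* 1.66. No peak carried the name of *Ifi44*. Matrix genes with large gains were *Col5a1*, with 1.93 in an intron and 1.40 at its promoter, and *Sdc3*, with 2.18. *Mmp14* gained 1.70 and 1.15 at intron peaks, whereas its neighbour *Slc7a7* had no peak under its name, nor had *Fap*, *Nid1* or *Hmcn2*. Among lymphocyte genes, *Nt5e* gained 1.18 in an intron and 0.69 at its promoter, and *Tlr3* 1.30 next to its start. *Cd80* had a pair of intron peaks that gained 0.91 and 0.54, and *Tnfsf4* 1 peak that gained 0.33. Members with less accessible peaks alone include *Tns4* (1 peak, -1.22) and *Tmem151b* (1 peak, -0.27). *Egfr* and *Lif* had 1 more accessible peak each among 4 and 3. No peak was listed under the names of 49 members, *Cdkn1a* and *Igsf9b* among them. For 5 of these 49 (*Tlcd5*, *H1f10*, *Scart1*, *Scart2* and *Kirrel1*) peaks were listed under an older symbol, all more accessible.

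The base composition of more accessible peaks depends on how many lie near a start. Over all such peaks of members, the median GC content was 52.4%, against 48.6% for those of tested genes, and the median ratio of observed to expected CG pairs 0.420 against 0.298. Within 1 kb of a start, the GC medians were 67.0% and 63.1% and the CG ratios 0.769 and 0.723. Farther away the gaps were smaller for GC, at 48.6% and 47.6%, and the CG ratios were 0.297 and 0.262. In peaks within 1 kb of a start, the TCF/LEF motif (CTTTGAT or CTTTGAA, both strands) was found in 1 of 124 member peaks (0.806%), against 7.60% of those of tested genes. In peaks farther away it was found in 21.9% and 21.7%. The STAT motif (TTCNNNGAA) was found in 4.84% of the near member peaks, against 6.68%, and in 15.6% of the farther ones, against 13.2%. The interferon response motif (GAAA, any 2 bases, GAAA) was found in 4.03% of the near ones, against 4.73%, and in 10.5% of the farther ones, against 8.35%. A match of letters is a description, not a bound site. Promoter sequences from RefSeq (GRCm38.p6, the build of mm10) were matched by symbol for 147 members (71.7%), and for 68 members the 250 bases before the start overlapped a more accessible peak of the same name. Over all 32851 promoters, the median stretch of these 250 bases held 6 CG pairs. The upstream stretches of 3 members whose promoters opened are shown 5′ to 3′, with CG pairs in capitals. Among the 68 members, *Nr3c2* had the largest peak increase, *Wnt3* the largest of WNT ligands and *Gucy1b1* the largest of cGMP genes. The stretches range from many CG pairs to about the median. They were chosen after their values were seen. *Nr3c2* (chr8:76902080-76902329, + strand) held 17 CG pairs and its peak gained 4.07, *Wnt3* (chr11:103773925-103774174, + strand) held 22 and gained 2.16, and *Gucy1b1* (chr3:82074712-82074961, - strand) held 5 and gained 1.59.
Nr3c2: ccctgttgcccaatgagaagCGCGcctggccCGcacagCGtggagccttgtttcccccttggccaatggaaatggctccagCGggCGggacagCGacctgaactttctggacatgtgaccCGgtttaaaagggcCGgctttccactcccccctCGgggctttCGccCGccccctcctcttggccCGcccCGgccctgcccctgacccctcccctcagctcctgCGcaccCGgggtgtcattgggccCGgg
Wnt3: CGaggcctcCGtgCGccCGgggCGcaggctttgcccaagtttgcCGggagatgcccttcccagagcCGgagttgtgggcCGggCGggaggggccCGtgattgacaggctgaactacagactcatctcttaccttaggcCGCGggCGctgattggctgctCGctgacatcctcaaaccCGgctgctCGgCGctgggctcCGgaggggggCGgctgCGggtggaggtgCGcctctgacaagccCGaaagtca
Gucy1b1: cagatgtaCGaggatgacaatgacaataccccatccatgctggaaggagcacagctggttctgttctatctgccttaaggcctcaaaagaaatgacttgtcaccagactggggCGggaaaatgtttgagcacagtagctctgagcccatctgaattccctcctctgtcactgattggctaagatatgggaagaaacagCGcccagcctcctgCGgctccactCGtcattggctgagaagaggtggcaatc

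The interferon response motif was found in 2.98% of all 250-base upstream stretches, the STAT motif in 7.02% and the TCF/LEF motif in 7.48%. Of 4 interferon-stimulated members with an upstream stretch in a more accessible peak, 2 held the interferon response motif, *Phf11a* and *Rsad2*. The motif and up to 60 bases on either side are shown 5′ to 3′ on the strand of the gene, the motif in capitals. They are shown because these genes share a known inducer. *Phf11a* is at chr14:59297523-59297611 (- strand) and *Rsad2* at chr12:26456503-26456632 (- strand, with the motif on the opposite strand), both in GRCm38.p6.
Phf11a: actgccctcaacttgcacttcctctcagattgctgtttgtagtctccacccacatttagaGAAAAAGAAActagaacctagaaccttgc
Rsad2: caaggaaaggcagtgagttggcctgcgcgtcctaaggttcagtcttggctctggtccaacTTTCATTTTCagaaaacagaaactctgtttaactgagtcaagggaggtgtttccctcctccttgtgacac

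Markers of other cell types were read in the same libraries, because several members are known from such cells. Of 8 B cell markers all are in the table, and they summed to 115783, 98083 and 107529 in WT and 96843, 91432 and 82964 in UTX TCD libraries. *Ighm* made up most of this sum, at 111647, 94692 and 103781 in WT and 94839, 89654 and 81282 in UTX TCD, and was not higher without UTX. *Ms4a1* stood at 5.94, 19.7 and 8.39 in WT and 20.2, 29.6 and 72.98 in UTX TCD and *Igkc* stood at 34.7, 43.4 and 23.6 in WT and 80.98, 55.3 and 117 in UTX TCD, both higher in each UTX TCD library and highest in UTX 3. *Cd79b*, at 2502, 1930.1 and 2465 in WT and 648, 633 and 469.6 in UTX TCD, was lower in each. So was *Ighd*, at 1150.1, 911 and 924 in WT and 702, 641 and 565 in UTX TCD. Members known from B cells were *Ighg2b*, an immunoglobulin constant region (3.96, 5.92 and 6.101 in WT and 26.99, 23.2 and 31.7 in UTX TCD), *Siglecg*, an inhibitory lectin (1.98, 1.97 and 4.58 in WT and 15.7, 11.2 and 34.6 in UTX TCD), and *Pik3ap1*, an adaptor of B cell receptor signalling (66.4, 70.1 and 67.1 in WT and 359.9, 337 and 677 in UTX TCD). All were highest in UTX 3. All 5 plasma cell markers, which include *Ighg2b* and the matrix list gene *Sdc1*, were higher in every UTX TCD library than in any WT library. For *Ighg2b* alone, as a member, the rule fixed this. *Xbp1* was the most abundant, at 5115, 5039 and 5242 in WT and 5522, 5470.0 and 5837 in UTX TCD. *Jchain* stood at 15.8, 29.6 and 9.91 in WT and 38.2, 30.4 and 89.2 in UTX TCD, *Mzb1* at 2.97, 5.92 and 1.53 in WT and 20.2, 11.2 and 11.8 in UTX TCD and *Sdc1* at 8.92, 10.9 and 6.101 in WT and 22.5, 23.2 and 19.2 in UTX TCD. The sums were 5147, 5091 and 5265 in WT and 5630.2, 5558 and 5989 in UTX TCD. The part of B cells and plasma cells in these values was not tested. Of 6 endothelial markers, which include *Prox1*, *Pecam1* made up almost all of the sum of 31206, 29404 and 31351 in WT and 37095, 37259 and 33117 in UTX TCD, and *Cdh5* was at 0 in all UTX TCD libraries. Of 9 fibroblast or reticular cell markers, *Ccl19* and *Ccl21a* were at 0 in every library. Their sums were 1235, 719 and 1295 in WT and 1478, 1497 and 1377 in UTX TCD, with *Col1a1* the most abundant (455, 254 and 463 in WT and 475, 439.6 and 455 in UTX TCD). The matrix list gene *Col1a2* stood at 279, 155 and 282 in WT and 394, 472 and 357 in UTX TCD, higher in each UTX TCD library. No marker of this list was lower in each. Of 6 markers of neurons or glia, *Snap25* was at most at 2.25, and the sums were 1075, 1027 and 975 in WT and 682, 681 and 718 in UTX TCD. The part of fibroblasts or of neurons in the matrix and synapse genes was not tested. The 5 neutrophil markers summed to at most 6.75, with *S100a8*, *S100a9* and *Elane* at 0 in every library. The 7 pancreatic markers summed to 31.7, 21.7 and 32.03 in WT and 11.2, 20.8 and 14.7 in UTX TCD, with *Ins2* at 0. The 4 CD4 T cell markers summed to 518, 413 and 490.4 in WT and 391, 382 and 369 in UTX TCD, *Foxp3* being the most abundant. Of the remaining lists, the 5 epithelial markers summed to 568, 552 and 559.8 in WT and 819, 667 and 839 in UTX TCD, mostly *Epcam* (359.6, 392 and 381 in WT and 751, 617 and 801 in UTX TCD), with *Krt19* at 0. Sums were 1229, 1242 and 1074 in WT and 1113, 887 and 1048 in UTX TCD for the 7 monocyte or macrophage markers (*Cd68* the most abundant), 265, 207 and 244 in WT and 216, 221 and 252 in UTX TCD for the 6 dendritic cell markers (*Xcr1*), 42921, 41013 and 44739 in WT and 38973, 40249.5 and 48689 in UTX TCD for the 5 natural killer cell markers (*Nkg7*), and 242, 196 and 169 in WT and 175, 163 and 309 in UTX TCD for the 4 erythroid markers in the table (*Alas2*). Within these lists the genes went both ways. *Epcam* and the natural killer cell gene *Eomes* (13370.0, 15314 and 13176 in WT and 19099.6, 19086 and 26829 in UTX TCD) were higher in each UTX TCD library, whereas the epithelial gene *Cdh1* (205, 158 and 179 in WT and 62.98, 44.04 and 28.01 in UTX TCD) and the natural killer cell genes *Nkg7* (29281, 25448 and 31335 in WT and 19756, 21067 and 21719 in UTX TCD) and *Gzma* (235, 195 and 211 in WT and 103, 90.5 and 113 in UTX TCD) were lower in each. The part of these cell types in the result was not tested.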

How the data were processed

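RNA-seq was measured in 6 libraries and ATAC-seq in 6. The deposited RNA-seq signal is the read count per gene, which the authors obtained with HISAT2 2.2.1 (mm10) and featureCounts and divided by 1 DESeq2 size factor per library. The deposited ATAC-seq values are the mean log2 concentration of each peak per genotype, which the authors made with Bowtie2, Picard, MACS2 and DiffBind, with HOMER for the Gene Name. The authors' log2 fold changes, standard errors, p-values, adjusted p-values and FDR, given in the same tables, were not used here.

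The members and lists were chosen with earlier results of these data known. In R 4.3.3, limma 3.58.1 (trended eBayes) compared the genotypes on log2 of the normalized count + 1 for the 14459 genes that averaged at least 10, adjusted by Benjamini-Hochberg over all of them. Calls were made at adjusted p below 0.05 with a log2 fold change beyond 0.5 in either direction. These p-values measure the spread between the replicates of each genotype, and were used for *Kdm6a*, the markers and genes of the 14 lists outside the set. Only the totals over all tested genes include members.

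Each library's values were divided by the size of 1 read in it (0.991 normalized counts in WT 1) to recover reads, and 100% of the values were whole within 0.01. On recovered reads edgeR 4.0.16 called 1529 genes higher and 1012 lower. Counted reads were 146456724, 144503203 and 193568919 in WT and 61512402, 175462433 and 187275082 in UTX TCD libraries, so that 3 reads were worth 2.21 to 6.75 normalized counts. Exon lengths and positions came from RefSeq (GRCm38.p6), and scripts ran in Python 3.11.15.

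Genes were named by a rule: *Kdm6a* and the CD8 T cell and progenitor markers; the 12 largest ratios and 12 highest UTX TCD means; members in a list; the 8 members with most peaks and the 8 with the largest increases, and those with less accessible peaks alone; members within 100 kb of another; the 4 genes on each side of the ratio limit; members with roles well known in T cells; and, per list, the 3 called genes with the largest absolute fold change outside the set. Other members named by role, and the roles themselves, were chosen after their values were seen. Some genes that this rule names are not reported here. Alternatives covered the pseudocount, filter, scaling, ratio and overlap limits, test, peak limits and distances, and each library left out.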

Additional observations from a re-analysis of the deposited data

How the results depend on the processing

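No alternative reversed a direction. The number of members was 104 with a mean of at least 50, 389 with a ratio of at least 1.5 and 59 with a ratio of at least 3, which follows from the limits themselves. It lay between 147 and 245 under the pseudocounts, a mean of at least 5, other scalings and no limit on overlap, and between 190 and 238 with each library left out, when 81.5% to 93.7% of the 205 members were kept. With peaks that differ by more than 1, 101 members had a listed peak and 44 a more accessible promoter peak, and the median difference was 1.56. Among members at a ratio of at least 3, these counts were 43 and 22. Counting RefSeq synonyms, an alternative chosen after seeing the data, gave 161 and 86.

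Genome-wide, 2538 genes were called by limma, 2474 with a replicate block and 2162 to 2572 with each library left out. Same-numbered libraries did not pair (deviations correlated across genes at 0.305, -0.200 and 0.0897), so the block is given only here. Of 52 named genes with a test, 50 kept their call with DESeq2.

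Base composition of the members' promoters was not compared as a set with that of tested genes, since only 71.7% of members have a promoter in the table, under the 80% needed. The CG pairs of the 3 stretches shown describe those genes alone. Depth limits genes near the floor of 3 reads, where UTX 1 is the coarsest library.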
